A study of Mus musculus with 8 samples.

Results

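Chronic cerebral hypoperfusion was modelled in mice by bilateral common carotid artery stenosis (BCAS), and chromatin accessibility of the cortex was profiled with ATAC-seq, in which the Tn5 transposase cuts and tags open DNA. The subject here is the set of exonic and UTR regions that were open in all 8 libraries. Peaks of the 8 libraries were merged into 197916 regions wherever they overlapped by at least 1 bp, and 71712 of these had a peak in every library. The exonic regions were chosen by this measured presence of a peak in all 8 libraries, together with a merged width under 2000 bp and a midpoint inside a GENCODE exon and more than 3 kb from any transcription start site (TSS). They numbered 1954, which is 2.73% of the regions open in every library, beside 27613 intronic, 21695 distal intergenic and 20354 promoter regions under the same width limit. Openness in every library is therefore a property of the selection and not a result.

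The BCAS group was 4 male C57BL/6 mice with microcoils of 0.16 mm on the right and 0.18 mm on the left common carotid artery, and the control group was 4 male C57BL/6 mice with a sham operation and no coil. All mice were 14 weeks old, 3 weeks after surgery, and each gave 1 library, so the unit of comparison was the mouse. GEO's labels give the right cerebral cortex, whereas the study's library table describes cortex of the whole brain, so the side sampled is uncertain. The tissue was not sorted. In such bulk tissue, fewer cells of a type and less accessible DNA per cell cannot be told apart. The peak lists held 119565 to 160720 peaks per BCAS library and 107391 to 144988 per sham library, and the depth behind single peaks is unknown because the lists hold no read counts. Peaks lay at the promoters of 9 of 12 cortical marker genes in every library and of 1 of 6 genes of other brain regions, 4 of which had no promoter peak in any library. By the read GC content of the study's quality table, BCAS 1 and sham 1, 2 and 3 formed a high class and BCAS 2, 3 and 4 and sham 4 a low class, so that read GC content was nearly aligned with the groups.

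Accessible DNA is mostly found at promoters and at enhancers in introns and between genes, but exons can also bind transcription factors, and such a stretch then carries a protein-coding or UTR message and a regulatory one together. CTCF is the insulator protein that anchors chromatin loops. AP-1 denotes dimers of FOS and JUN proteins, which bind enhancers and are induced by neuronal activity, stress and inflammation. PU.1 is the ETS-family factor of microglia and other myeloid cells, and NEUROD1 and related factors act in excitatory neurons.

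Binding motifs of CTCF and AP-1 within 100 bp of the peak summit were the sequence features read most closely, and the sites below are shown because they sit in the tallest exonic regions that hold each motif. Each sequence is 30 bases of GRCm38 (the same assembly as mm10), 5′ to 3′, with the motif in capitals. The CTCF sites are given on the strand that reads as the consensus and the AP-1 sites on the strand of the host gene.
Skap2 3′ UTR, CTCF, chr6:51858059-51858088, minus strand: cctaagtggCCAGCAGATGGCagcagcttg
Slc8a3 coding exon, CTCF, chr12:81199725-81199754, plus strand: ctgcatggcCCAGTAGATGGCggccacgga
6820408C15Rik coding-exon region, CTCF, chr2:152437681-152437710, minus strand: tgaaagaagCCAGCAGAGGGCgcgcctgcg
Ror2 3′ UTR, CTCF, chr13:53109743-53109772, plus strand: catcctccgCCAGCAGGGGGCtcacggagc
Ltbp2 coding-exon region, CTCF, chr12:84784659-84784688, plus strand: gacacacgcCCACTAGGGGGCagcagcgtg
1700087I21Rik non-coding exon, AP-1, chr14:103440410-103440439, plus strand: cactcagaggaTGAGTCAcacggtgtgggc
Dnah7a coding-exon region, AP-1, chr1:53547109-53547138, minus strand: aactgagagctgTGACTCActtcatttcta
Olfr789 3′ UTR, AP-1, chr10:129490271-129490300, plus strand: cacctacacaaTGACTCAcagccatctgtg
Dnah7b coding-exon region, AP-1, chr1:46201410-46201439, plus strand: actgagagctgTGACTCActtcatttctat
Bloc1s5 3′ UTR, AP-1, chr13:38603191-38603220, minus strand: agtgtctgtgcaTGACTCAgctgcgcagtg

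The motifs of 6820408C15Rik, Ltbp2, Dnah7a and Dnah7b lay beside the annotated exon within the region, and the others lay inside it. Skap2 encodes an adaptor protein of immune cells, Slc8a3 a sodium-calcium exchanger and Ror2 a WNT5A receptor. Dnah7a and Dnah7b held the same letters around the AP-1 motif. Reads of these axonemal dynein paralogs may be split or shared between the copies, so their heights are uncertain.

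Coding sequence held 859 of the 1954 regions (44.0%, Wilson 95% interval 41.8 to 46.2) and 3′ UTRs held 801 (41.0%, 38.8 to 43.2). Exons of non-coding transcripts held 270 (13.8%) and 5′ UTRs 24 (1.23%). The regions fell in 1816 genes, and 1684 of them were in protein-coding genes. The last exon of the transcript held 1266 regions (64.8%), including 795 of the 801 in 3′ UTRs but 248 of the 859 in coding sequence. Merged widths ran from 257 to 1929 bp with a median of 555 bp, close to the 556 bp of intronic regions and below the 812 bp of promoters. The summit itself was inside the exon in 85.7% of regions, and 894 regions lay wholly within their exon. The exon was short around coding regions (median 241 bp) and long around 3′ UTR regions (median 2922 bp). The summit was inside the exon for 72.9% of coding regions and 97.1% of 3′ UTR regions.

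The median GC content of the exonic regions was 50.7%, between the 47.3% of intronic and the 57.9% of promoter regions open in every library. Per megabase of annotated sequence, 33.0 exonic regions were open in every library, against 29.4 intronic, 15.4 distal and 64.5 promoter regions. Of all 6413 merged exonic regions, 30.5% were open in every library (Wilson 95% interval 29.4 to 31.6), close to the 31.4% of intronic regions. At the edges of the rule, the member nearest to a TSS was 3006 bp away and the nearest exonic region left out was 2999 bp away. Members had a median highest percentile of 77.1 among all peaks of a library, and the 585 exonic regions with a peak in 7 libraries had 59.0.

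The CTCF motif, searched as a 12-letter core consensus on both strands, was present in 105 of the 1954 exonic regions (5.37%, Wilson 95% interval 4.46 to 6.46). It was present in 3.27% of intronic (3.07 to 3.49), 4.42% of distal (4.16 to 4.71) and 2.02% of promoter regions. The exonic and distal intervals overlapped. Within exons the CTCF share was 6.99% in 3′ UTRs (5.42 to 8.97), 4.66% in coding sequence (3.44 to 6.28) and 2.59% in non-coding exons (1.26 to 5.25), with intervals of 3′ UTRs and coding sequence that overlapped. The AP-1 motif (TGACTCA or TGAGTCA, both strands) was present in 226 exonic regions (11.6%, 10.2 to 13.1), against 14.3% of intronic, 14.3% of distal and 5.53% of promoter regions. Its share was 14.8% in non-coding exons (11.1 to 19.5), 13.2% in 3′ UTRs (11.1 to 15.8) and 9.20% in coding sequence (7.44 to 11.3). In 5′ UTRs, with 24 regions, CTCF was at 8.33% (2 regions) and AP-1 at 4.17% (1 region). The nearest motif to the summit lay inside the host exon in 87 of the 105 CTCF regions and 189 of the 226 AP-1 regions. These shares describe letters and not binding, and the classes differ in base composition.

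**Figure D1:**
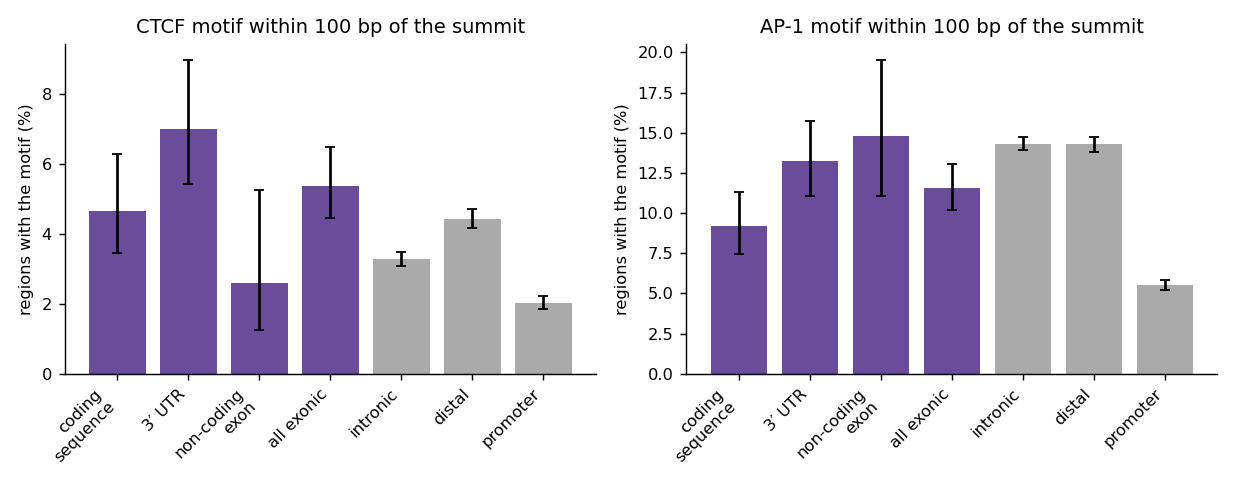
Share of regions open in every library (in percent) that hold a CTCF motif (left panel) or an AP-1 motif (right panel) within 100 bp of the summit, with exon classes in purple, other classes in grey and Wilson 95% intervals as bars. CTCF motifs were at 6.99% in 3′ UTRs and 2.02% in promoters, and AP-1 motifs at 9.20% in coding sequence and 14.3% in introns.

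Of the neuronal and myeloid motifs, NEUROD1 (CAGATGG after A or G) was in 7.83% of exonic and 7.72% of intronic regions, and PU.1 (GAGGAAGT) in 1.89% and 2.13%. The C/EBP motif (TTGCNNAA) was in 8.24% of the exonic, 9.75% of intronic and 10.7% of distal regions. Motifs of promoters were rarer than in promoter regions: SP1 (GGGGCGGGG) was in 1.38% of exonic and 13.5% of promoter regions, and NRF1 in 1.13% and 5.51%. The shares in intronic and distal regions were lower still, at 0.768% and 1.01% for SP1 and 0.148% and 0.281% for NRF1. The 22 exonic regions with an NRF1 motif were tall, with a median percentile of 88.0 against 60.6 for those without it.

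Height was read as the authors' fold enrichment at the summit, ranked among all peaks of its library. The median exonic region stood at percentile 63.7 ± 4.3 in BCAS and 62.0 ± 5.8 in sham libraries (SD, n = 4 each). This was near intronic regions (64.9 ± 4.5 and 64.5 ± 4.8). It was below distal regions (70.4 ± 4.5 and 71.0 ± 4.5) and promoters (80.7 ± 1.6 and 77.8 ± 2.5). Regions in 5′ UTRs, 24 in number, were taller (73.1 ± 2.0 and 70.4 ± 4.0) than those in 3′ UTRs (62.0 ± 4.5 and 59.1 ± 6.2). Among the 24, those of Sf3b5, Ethe1, Sgk2, A930004D18Rik and Dtna lay within 3 kb of a curated transcript start in another annotation, RefSeq. Percentiles may depend on the length of a list, which was not tested. BCAS 1 and sham 3, the longest lists of their groups, had the highest exonic medians at 69.9 and 68.4. Sham 1, the shortest list, stood at 57.6, above sham 4 at 56.6. The groups overlapped in every class of exon.

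**Figure D2:**
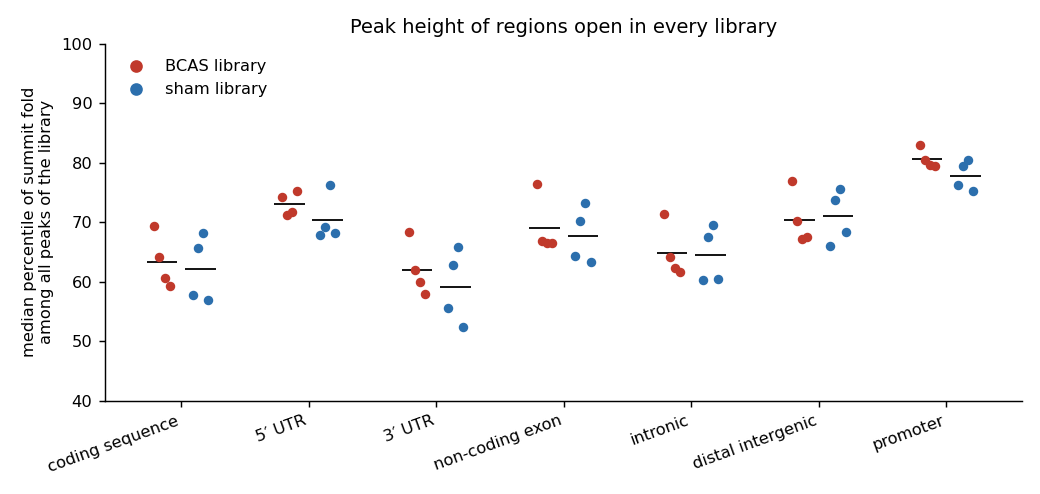
Median percentile of the summit fold among all peaks of the library (vertical axis), for each class of region open in every library, with 1 point per library, BCAS in red on the left, sham in blue on the right and group means as lines. BCAS and sham points overlap in each class of exon, and promoters stand highest at 80.7 in BCAS and 77.8 in sham on average.

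The tallest exonic regions were at the top of every list. The highest by mean percentile was in the 5′ UTR of Sf3b5 (chr10:13007920-13008993), a subunit of the spliceosome's SF3b complex, at 99.8. Exon 2 of the lincRNA 1700087I21Rik and coding exon 9 of Magi1, a junction scaffold, also stood at 99.8, and Cyp4f13, a cytochrome P450 of a multigene family, at 99.6. Mmp25, a membrane-anchored metalloproteinase, Dnah7a, the BMP receptor Bmpr1b and the lincRNA 9030616G12Rik each stood at 99.4, and the 3′ UTR of Lars2, the mitochondrial leucyl-tRNA synthetase, at 99.3. To compare libraries, each fold was divided by the library's median over the 71712 regions open in every library, and this relative fold was 1 at the median region. The Sf3b5 region had relative folds of 2.31, 2.60, 2.60 and 2.70 in BCAS and of 2.91, 2.57, 2.60 and 2.51 in sham libraries. The Cyp4f13 region had 2.50, 2.76, 2.88 and 2.65 in BCAS and 2.51, 2.40, 2.38 and 2.06 in sham libraries, and did not pass the test across regions (adjusted p = 0.14). None of the 10 tallest passed it.

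Some of these regions are promoters in another annotation. The Sf3b5 midpoint was 6 bp from a curated RefSeq transcript start of the same gene. In all, 25 of the 1954 regions (1.28%) were within 3 kb of a curated RefSeq start, and 136 (6.96%) when predicted transcripts were counted. The 25 included Ethe1 and Sgk2, at 20 and 242 bp, and Syn2 and Myt1, at 497 and 438 bp.

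Most genes had 1 such region (1695 genes), 108 had 2 and 13 had more. Syne1, which encodes the nuclear-envelope spectrin nesprin-1, had 5, all in coding exons (exons 47, 60, 89, 118 and 125 of 146). Their mean percentiles ran from 44.3 to 92.9, and the tallest, in exon 89, had relative folds of 1.46, 1.76, 1.52 and 1.60 in BCAS and of 1.70, 1.75, 1.55 and 1.75 in sham libraries. Dst, the cytolinker dystonin, had 4, with 3 in coding exons and 1 in a 3′ UTR, and D1Ertd622e had 4, all in the 3′ UTR of its last exon. Sptbn4, the spectrin of the axon initial segment, Macf1, the microtubule-actin crosslinker, and Vcl, which encodes vinculin, had 3 each. The tallest of these was in exon 33 of Sptbn4, with relative folds of 1.85, 1.73, 1.83 and 1.82 in BCAS and of 1.68, 1.76, 1.60 and 1.42 in sham libraries (log2 difference 0.17 ± 0.09 (SE), adjusted p = 0.40). No region of these 6 genes passed the test between groups.

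By gene lists, large cytoskeletal and matrix genes held exonic regions most often: 7 of 20 genes, with 14 regions, against 7.08% of all protein-coding genes. The list was made of large genes and includes Dst, Sptbn4 and Macf1, named above for having the most regions. Its count is therefore no independent sign of a theme. Cortical transcription factors had 7 of 30 genes with a region, synaptic genes 4 of 30 and chromatin regulators 3 of 30. The transcription factor gene Zfhx4 had 2 regions. Its 3′ UTR region had relative folds of 0.930, 0.957, 0.950 and 0.980 in BCAS and of 1.35, 1.07, 1.04 and 1.56 in sham libraries, and its coding exon 4 region had 0.701, 1.08, 0.858 and 0.869 in BCAS and 0.541, 0.768, 0.765 and 0.638 in sham libraries. Neither passed the test (adjusted p = 0.18 and 0.28). The synaptic regions were in Anks1b, Syn2, Bsn and Grm5, and the chromatin regions in Chd7, Kdm6b and Kmt2a. Of the marker genes of cell types, Pdgfra and Vcan, both of oligodendrocyte precursors, had 1 region each. None of the regions in any of these lists passed the test in either direction.

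BCAS and sham libraries were compared at each region by the log2 relative fold, fitted with limma over all 71712 regions open in every library and adjusted over all of them. Of the 1954 exonic regions, 33 (1.69%) were higher and 5 (0.256%) lower in BCAS cortex at an adjusted p under 0.05. Over all regions the shares were 1.61% higher and 0.676% lower, so the share of higher exonic regions was near the background. The remaining 1916 did not pass. At an unadjusted p under 0.05 there were 155 higher and 127 lower exonic regions, beside 5529 and 5409 of all 71712 regions. The median log2 difference was 0.0046 over the exonic regions and 0.0047 over all regions. Each library was centred on its median over all 71712 regions, so no overall shift between groups could show in the latter value. The groups did not overlap in 95 exonic regions that were higher and 76 that were lower in BCAS (4.86% and 3.89%), beside 4.77% and 3.63% of all regions. By exon class, 19 of the higher regions were in 3′ UTRs (2.37% of them), 7 in coding sequence (0.815%), 6 in non-coding exons and 1 in a 5′ UTR, and of the lower regions 3 were in 3′ UTRs and 2 in coding sequence.

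The number of calls depended on how the read GC class was treated. With it as a covariate, 8 of the 33 higher regions and none of the 5 lower ones passed, the 8 being those of Gm4841, Foxr1, Gm14120, Havcr2, Rad52, Pde11a, Cdk19 and Phldb3. The differences themselves stayed in the same direction in all 38, with a median of 0.59 in place of 0.64 (log2) for the higher and of -0.46 in place of -0.59 for the lower regions. Each higher region kept 65.7% to 110.6% of its log2 difference and each lower one 70.7% to 96.0%. All 33 higher regions were higher in BCAS, and all 5 lower ones lower, within both GC classes, each of which holds only 1 library of 1 group and so carries no test. Region GC content was weakly related to the difference across the 1954 regions (Spearman rho 0.17, regions of the same libraries, no test). With the region's GC content removed, 23 of the 33 and 2 of the 5 remained.

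**Figure D3:**
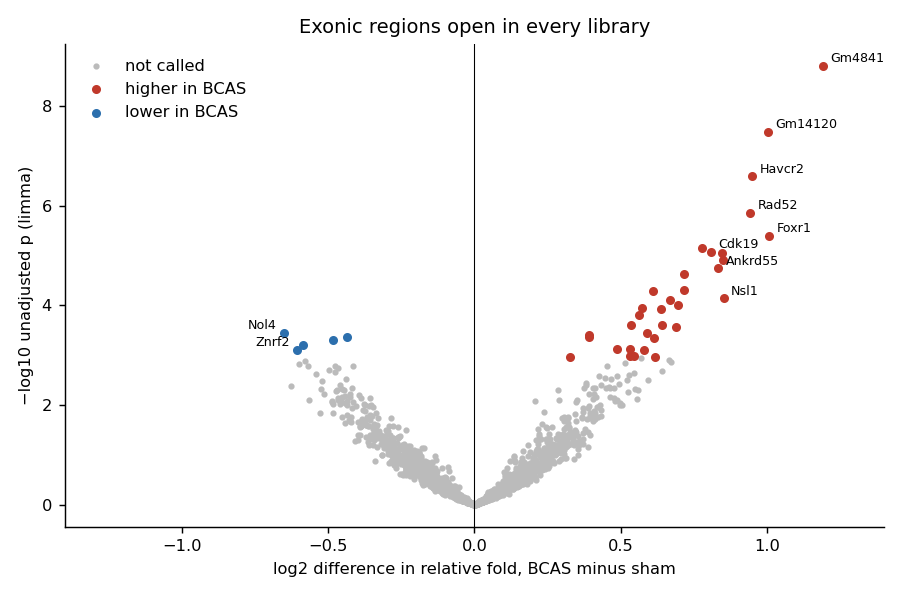
Log2 difference in relative fold, BCAS minus sham (horizontal axis), against the −log10 unadjusted p from limma (vertical axis) for the 1954 exonic regions, with regions called higher in BCAS in red, lower in blue and others in grey. The 33 red points reach a log2 difference of 1.19 at Gm4841, and the 5 blue points lie between -0.65 and -0.43.

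The regions of Gm4841, Foxr1, Gm14120 and Havcr2 rose most in BCAS cortex. The largest difference was in the 3′ UTR of Gm4841 (chr18:60268410-60269019, exon 2 of 2), a member of the interferon-inducible GTPase family, a multigene family whose copies may share reads. Its relative folds were 1.89, 2.11, 1.91 and 2.07 in BCAS and 0.727, 0.841, 0.888 and 1.07 in sham libraries, with no overlap. The log2 difference was 1.19 ± 0.12 (SE, adjusted p = 2.8e-05), and 0.00265 was the adjusted p with the GC class as covariate.

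Havcr2, which encodes the checkpoint receptor TIM-3 of T cells and myeloid cells, microglia included, rose in its 3′ UTR (chr11:46480421-46480975, exon 7 of 7). Its relative folds were 1.77, 1.65, 1.58 and 1.49 in BCAS and 0.675, 0.841, 0.966 and 0.907 in sham libraries. The log2 difference was 0.95 ± 0.13 (SE, adjusted p = 0.00023). The lincRNA Gm14120 rose in its exon 2 (chr2:148478268-148478701), where every BCAS library, at 1.50, 1.70, 1.74 and 1.68, was above every sham library, at 0.831, 0.727, 0.927 and 0.824. Its log2 difference was 1.0 ± 0.12 (SE, adjusted p = 7.8e-05).

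Havcr2 and Gm14120, like Gm4841 and Ankrd55, held an AP-1 motif near the summit. Sites of called regions are shown in the layout used above, with that of Npc2, which was lower in BCAS.
Havcr2 3′ UTR, chr11:46480672-46480701, plus strand: tcaaggggaacTGACTCAgacaacttctcc
Gm14120 exon, chr2:148478537-148478566, plus strand: ctcgaggtctgTGAGTCActgctagttgcc
Ankrd55 3′ UTR, chr13:112337404-112337433, plus strand: taggcagctggTGACTCAgccattcatact
Npc2 3′ UTR, chr12:84756283-84756312, minus strand: ctagagaagatgTGACTCAcaggactcacg

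The motif centre was 6 bp from the summit in Havcr2 and 18 bp in Gm14120. AP-1 was present in 4 of the 33 higher regions (12.1%), near its share of 11.6% over all 1954. PU.1 was in 1 (the non-coding exon of Gm48545; 3.03% against 1.89% of all) and CTCF in 1 (Epg5, an autophagy gene; 3.03% against 5.37%). The called sites were chosen for display after the calls were seen.

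The rest of the 10 largest increases were in genes of different roles. Each region is named by the exon that holds its midpoint, and a coding exon can be a small part of it. Foxr1, a forkhead gene, rose in a 442 bp region around its 244 bp coding exon 3 of 5 (chr9:44435741-44436182). Its relative folds were 1.35, 1.57, 1.36 and 1.31 in BCAS and 0.519, 0.727, 0.618 and 0.989 in sham libraries (log2 difference 1.01 ± 0.17 (SE), adjusted p = 0.0015). Rad52, of homologous recombination, rose in a 556 bp region around its 152 bp coding exon 9 of 12 (chr6:119918657-119919212). Its values were 1.48, 1.15, 1.44 and 1.26 in BCAS and 0.623, 0.612, 0.772 and 0.766 in sham libraries (0.94 ± 0.14, adjusted p = 0.00074). Atf6, a sensor of endoplasmic reticulum stress, rose in its 3′ UTR (chr1:170709415-170710005), with 1.74, 1.83, 1.75 and 1.80 in BCAS and 0.986, 0.650, 1.24 and 1.20 in sham libraries (0.85 ± 0.15, adjusted p = 0.0031). In each of these every BCAS library was above every sham library.

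Pde11a, a phosphodiesterase of cAMP and cGMP, rose in its 3′ UTR (chr2:75990930-75991279), with 1.31, 1.16, 1.33 and 1.26 in BCAS and 0.737, 0.765, 0.541 and 0.798 in sham libraries (log2 difference 0.84 ± 0.15, SE). Cdk19, a kinase of the Mediator complex, rose in a 729 bp region around its 79 bp coding exon 11 of 13 (chr10:40476547-40477275). Its values were 1.06, 1.23, 1.16 and 1.24 in BCAS and 0.690, 0.584, 0.695 and 0.714 in sham libraries (0.81 ± 0.14, SE). The 3′ UTR of Nsl1, a kinetochore gene (chr1:191085530-191086318), and that of Ankrd55, an ankyrin repeat gene (chr13:112337074-112337584), rose by 0.85 ± 0.17 and 0.83 ± 0.15 (SE). The lowest BCAS library of Nsl1 was at 0.935 and its highest sham library at 0.742, and for Ankrd55 these were 1.74 and 1.48. With the GC class as covariate, Atf6, Nsl1 and Ankrd55 had log2 differences of 0.75, 0.68 and 0.64 and no longer passed (adjusted p = 0.077, 0.15 and 0.096).

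The other 23 higher regions had log2 differences of 0.33 to 0.78. The values of the genes named here were picked out after the calls were seen. They included 3′ UTRs of Kdr, the vascular endothelial growth factor receptor of endothelial cells (0.57 ± 0.12, SE), of Ndufab1 and Sdhc, which encode mitochondrial respiratory chain proteins (0.69 ± 0.16 and 0.33 ± 0.09), and of Eif2ak1, the heme-regulated kinase of translation initiation (0.49 ± 0.13). A 733 bp region around a 116 bp coding exon of Mtor, the growth-regulating kinase, rose by 0.59 ± 0.14. None of these 5 passed in every fit with a library left out: of 8 such fits Kdr passed in 7, Ndufab1 in 5, Mtor in 4, Sdhc in 2 and Eif2ak1 in 0. With the GC class as covariate their adjusted p was 0.12 to 0.31. Sdhc was the only one of the 33 in which the groups overlapped. Of the 33, 16 passed with any single library left out, among them the 10 largest. The rest of these 16 were Phldb3, Gm48545, Epg5, Ccdc120, Cyp4f37 and Sgk2. Of that rest only Phldb3, at 0.78 ± 0.13 (SE), also passed with the GC class (limma adjusted p = 0.032).

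The 5 lower regions had log2 differences of -0.65 to -0.43, and none passed with every library left out in turn. Nol4, a nucleolar protein gene, fell in a 349 bp region around its 114 bp coding exon 8 of 10 (chr18:22751780-22752128). Its relative folds were 0.780, 0.609, 0.620 and 0.654 in BCAS and 1.15, 1.07, 1.16 and 0.824 in sham libraries (log2 difference -0.65 ± 0.15 (SE), adjusted p = 0.025). Npc2, the lysosomal cholesterol-binding protein, fell in its 3′ UTR (chr12:84755977-84756518), with 1.18, 1.24, 1.31 and 1.24 in BCAS and 1.86, 1.83, 1.52 and 1.54 in sham libraries (-0.43 ± 0.11, adjusted p = 0.029). Col15a1, a basement membrane collagen, fell in its 3′ UTR (chr4:47312620-47313159), with 0.657, 0.575, 0.621 and 0.599 in BCAS and 1.08, 0.839, 0.960 and 0.825 in sham libraries (-0.59 ± 0.15). The 3′ UTR of the ubiquitin ligase gene Znrf2 (chr6:54891276-54891713) fell by 0.61 on the log2 scale. A 628 bp region around the 115 bp coding exon 2 of Sctr, the secretin receptor (chr1:120021869-120022496), fell by 0.48. Of the 38 called regions, 4 had a midpoint within 3 kb of a RefSeq transcript start: the higher 5′ UTR region of Sgk2 at 242 bp from a curated start and, from predicted starts, Sctr at 1 bp, Gm36287 at 559 bp and Gm4841 at 2665 bp.

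**Figure D4:**
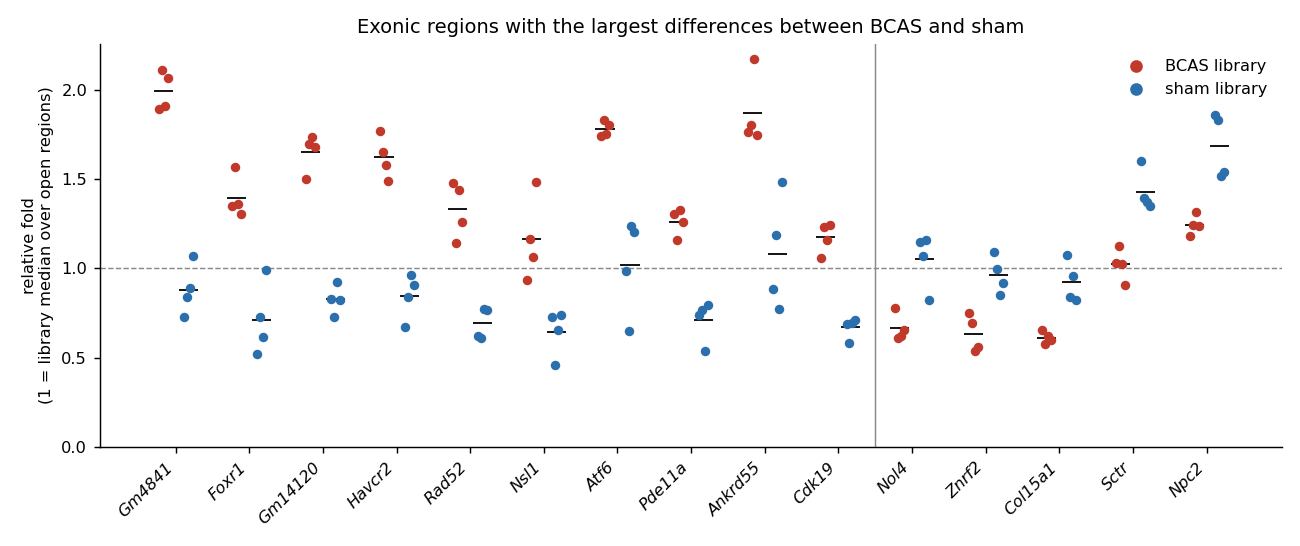
Relative fold (summit fold over the library's median across regions open in every library; dashed line at 1) of the 10 largest increases and, right of the vertical line, the 5 decreases, with 1 point per library, BCAS in red on the left, sham in blue on the right and group means as lines. For Gm4841 the BCAS libraries sit between 1.89 and 2.11 and the sham libraries between 0.727 and 1.07.

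Regions that share a motif differed little between the groups. The 226 exonic regions with an AP-1 motif had a median log2 difference of -0.08, and 37.2% of them were above 0, against 0.01 and 52.6% for the 1728 without it. Their median relative folds were 0.960, 0.951, 0.906 and 0.925 in BCAS and 0.967, 0.997, 1.01 and 0.960 in sham libraries, and BCAS 1 stood at the level of sham 4. The 105 regions with a CTCF motif had a median difference of 0.06, with 64.8% above 0. Their median relative folds were 0.964, 1.0, 1.07 and 1.03 in BCAS and 0.945, 0.985, 0.939 and 0.920 in sham libraries, and the groups overlapped, with BCAS 1 below sham 2. With region GC removed the CTCF median was 0.04. C/EBP regions had a median of -0.05 and PU.1 regions, 37 in number, of 0.03. AP-1 regions were lower in GC content (48.2% against 50.9%), and with region GC removed the medians were -0.06 with and -0.0024 without the motif. These are descriptions of regions that share libraries, with no test.

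The length covered by peaks gave a separate view of each region. Scaled to the library's total covered length, 3 exonic regions were longer (0.154%) and 1 shorter (0.0512%) in BCAS libraries, beside 0.177% and 0.119% of all regions. None of the 4 was among the 38 called by height. Tmem72, a transmembrane protein gene, had 551, 504, 501 and 428 bp covered in its 3′ UTR region in BCAS and 267, 200, 207 and 259 bp in sham libraries (log2 difference of the scaled length 1.01 ± 0.20 (SE), adjusted p = 0.018). Pitpnm1, a phosphatidylinositol transfer protein gene, had a 1056 bp region around its 481 bp last coding exon. In it 988, 965, 907 and 775 bp were covered in BCAS and 423, 458, 426 and 489 bp in sham libraries (0.92 ± 0.18, adjusted p = 0.016). In both, every BCAS library was longer than every sham library.

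Trmt12, a tRNA modification gene, had 868, 838, 737 and 860 bp in its 3′ UTR region in BCAS and 270, 297, 539 and 543 bp in sham libraries (log2 difference 0.98 ± 0.22 (SE), adjusted p = 0.043). Fbxl17, a ubiquitin ligase adaptor gene, had 357, 219, 200 and 200 bp in BCAS and 536, 442, 428 and 366 bp in sham libraries (-0.98 ± 0.19, adjusted p = 0.016), and its groups did not overlap either. The 200 bp of Fbxl17 in BCAS 3 and BCAS 4, and of Tmem72 in sham 2, was the smallest covered length in any called region. The same 200 bp recurred in regions called by height: Foxr1 and Ccdc120 in sham 1, Nsl1 in sham 2, Ndufab1 in sham 4 and Znrf2 in BCAS 3. Lengths of 200 bp may therefore sit at a floor. With the GC class as covariate no exonic region passed on covered length, beside 1 of all 71712 regions.

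**Figure D5:**
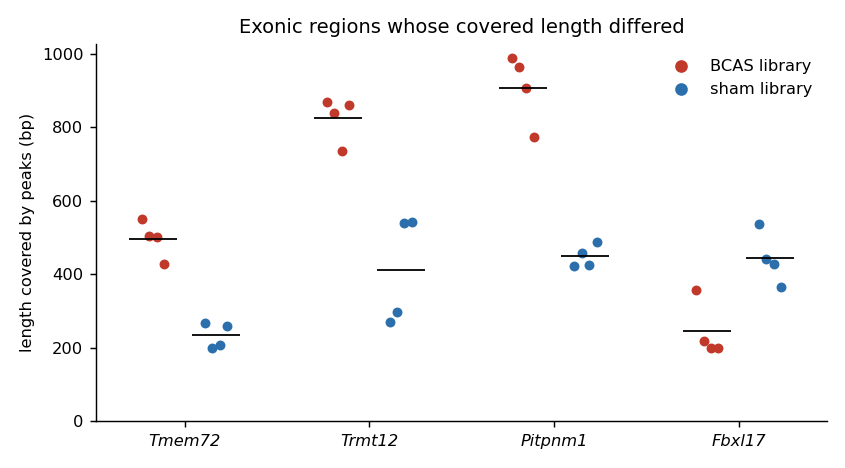
Length covered by peaks (bp, before scaling to the library's total) in the 4 exonic regions whose covered length differed between groups, with 1 point per library, BCAS in red on the left, sham in blue on the right and group means as lines. The Pitpnm1 region spans 775 to 988 bp in BCAS and 423 to 489 bp in sham libraries, and the Fbxl17 region is the only one shorter in BCAS.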

How the data were processed

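ATAC-seq libraries of 8 cortices, 1 per mouse, were used. The authors checked reads with FastQC, trimmed with Trim Galore, aligned to mm10 with Bowtie2 2.3.4.3, used SAMtools 1.9 and called peaks per library with MACS2. DiffBind is also named. No source used here gives the MACS2 options. In the deposited lists stand each peak's integer score, the authors' fold enrichment ratio at the summit, −log10 p and −log10 q, and the summit offset. The score and −log10 p were not used.

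Peaks on 21 chromosomes were merged in pandas 2.3.3 and numpy 2.4.6 (Python 3.11.15), with intervals from scipy 1.17.1, and classed by GENCODE vM21 basic. Where a region held several peaks of a library, the tallest was used. The log2 fold was centred on the library's median over regions open in every library. The length covered was divided by the library total before the log2 step. Both were fitted with limma 3.58.1 (R 4.3.3, variance trend), with Benjamini-Hochberg adjustment, after the fit was tested on simulated data. P-values use the spread between mice.

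The named regions were the 10 tallest, the 10 largest called increases and decreases without overlap, those of up to 6 genes with most regions, up to 3 per gene list, and up to 5 sites per motif. One region that this rule names is not reported here. Regions, lists and tests were chosen with earlier results of these data known. Plots were drawn with matplotlib 3.10.9 and sequence was read with pyfaidx 0.9.0.4. Motif intervals cover counting error only. Alternatives left out each library, added the replicate block, the GC class or region GC removal, and changed scaling, threshold, pseudocount and annotation.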

Additional observations from a re-analysis of the deposited data

Results flagged for a closer look

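Among the 59 exonic regions named by rule, each group of 4 libraries was checked for a library far from the other 3, by Dixon's criterion. Of 118 groups, 6 had one, and chance gives about 1 in 20. The Mmp25 3′ UTR region was high in BCAS 3, at a relative fold of 2.70 against 2.33 to 2.38 in the other BCAS libraries. The Lars2 3′ UTR region was low in BCAS 1, at 2.01 against 2.42 to 2.44. The Ankrd55 3′ UTR region, one of those called higher, reached 2.17 in BCAS 3 against 1.75 to 1.80 in the other BCAS libraries. A coding region of Dst was low in BCAS 1, at 0.402 against 0.621 to 0.651. The Cdk19 coding region, also called higher in BCAS, was low in sham 2, at 0.584 against 0.690 to 0.714 in the other sham libraries. A coding region of Macf1 was high in sham 1, at 1.13 against 0.824 to 0.860.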

How the results depend on the processing

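The number of exonic regions stayed between 1638 and 2924 under other thresholds, overlaps, TSS sets and annotations, against 1954, and the comprehensive GENCODE set and RefSeq starts, both chosen after seeing the data, gave 1780, 1929 and 1818. The calls by summit fold, 33 higher and 5 lower, moved to 8 and 0 with the GC class as covariate, to 2 lower with region GC removed, and to 1 and 0 on the percentile scale. Over all 71712 regions, 1156 higher and 485 lower moved to 298 and 36 with the GC class. They moved to 838 and 224 with region GC removed, and to 85 and 6 on the percentile scale. Leaving out each library gave 21 to 35 higher and 0 to 7 lower exonic regions. Over all 71712 regions the same fits gave 758 to 1316 higher and 140 to 523 lower. The higher count moved by over 1.5 times only without sham 1, to 21. The lower count moved to 3 without BCAS 2 or sham 3, to 2 without BCAS 4 or sham 1, to 1 without BCAS 3 and to 0 without sham 2. By covered length, 3 higher and 1 lower moved to 0 and 0 with the GC class, to 0 lower with region GC removed or no scaling, and to 2 lower with 200 bp added. Leaving out each library gave 0 to 8 higher, with 0 without sham 3 and 8 without sham 4, and 1 to 5 lower, with 5 without BCAS 2 or sham 2, 4 without BCAS 1, 3 without BCAS 3 and 2 without BCAS 4, sham 1 or sham 4. Over all 71712 regions these covered-length fits gave 74 to 200 higher and 48 to 213 lower. With the GC class they gave 1 and 0. The cause of these moves was not tested. The AP-1 share was 7.27% within 50 bp of the summit, where the window is shorter by construction.

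The labels' replicate numbers gave no clear sign of pairing: the correlations of same-numbered libraries, after removal of group means, were -0.05, -0.02, -0.04 and 0.07. They cannot exclude a pairing, because no differently numbered libraries were set beside them. With the replicate block, 39 exonic regions were higher and 11 lower by summit fold, and 10 and 13 by covered length. Over all 71712 regions these counts were 1381 and 784, and 314 and 349. With the replicate block and region GC removed, the exonic counts were 20 and 2, and 0 and 0. Those over all regions were 873 and 206, and 0 and 0. Of the 15 regions named for their change, all passed under the block, 7 passed with the GC class, and none changed direction under any of these or with a library left out. The number of reads behind single peaks is unknown, which limits what can be seen in the weakest regions.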

Other observations

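Of the 6413 merged exonic regions, 1318 had a peak in 1 library and 1954 in all 8, with 406 to 697 at each number of libraries between. Of the 585 exonic regions with a peak in 7 libraries, BCAS 1, 2, 3 and 4 lacked 1, 36, 118 and 102, and sham 1, 2, 3 and 4 lacked 172, 20, 16 and 120. Chromosome 1 held the most exonic regions open in every library, 163, and chromosome X 26.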
